A study of Homo sapiens with 16 samples.

Results

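The adrenergic core regulatory transcription factors examined here were PHOX2A, HAND2, GATA2, GATA3, ISL1, TBX2, TFAP2B and KLF7. They were chosen by name as 8 of the 19739 protein-coding genes of the autosomes and X chromosome, and the rule uses no measured value, although earlier results of these data were known when they were chosen. For each gene the body and 50 kb on each side, called its locus here, was searched in BE2C cells, an established human neuroblastoma line with amplified MYCN. CUT&Tag, which cuts out and tags the chromatin around an antibody-bound mark, was run for monomethylated histone H3 lysine 4 (H3K4me1) and trimethylated lysine 27 (H3K27me3). There were 16 libraries in 8 groups of 2. One experiment compared transfection with siKDM6B33, a small interfering RNA directed at KDM6B, with a control RNA (siCtrl), both over 72 h. The other compared 2.5 µM GSKJ4 (GSK-J4), a prodrug whose product blocks the KDM6 family, with the solvent DMSO at 0.1%, both over 72 h. All groups were the same line, and the replicates are described by the authors as biological, with no further detail. Histone marks do not measure KDM6B transcript or protein, so the knockdown could not be checked in these libraries.

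A core regulatory circuitry is a small set of transcription factors that bind their own and each other's enhancers and hold a cell in its state. In adrenergic neuroblastoma, which resembles sympathetic neuroblasts, this set includes homeodomain factors (PHOX2A, ISL1), GATA zinc fingers (GATA2, GATA3), the helix-loop-helix factor HAND2, the T-box factor TBX2, the AP-2 factor TFAP2B and the zinc finger factor KLF7. H3K4me1 marks enhancers and the flanks of promoters. H3K27me3 is laid down by Polycomb repressive complex 2 over silent developmental genes, and KDM6B removes it.

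Both marks were deposited as broad regions, called islands, and as narrow peaks, each called library by library. H3K4me1 libraries held 21534 to 24916 islands in the knockdown experiment and 17762 to 19168 in the compound experiment. H3K27me3 libraries held 10551 to 15941 islands in the knockdown experiment and 7171 to 16669 in the compound experiment, where the first GSK-J4 library, with 16669, stood apart from the second, with 8002. The genome background of the narrow peaks, which rises with the tags sequenced, ran from 0.0849 to 0.107 tags for H3K4me1 in the knockdown experiment and from 0.0483 to 0.0569 tags in the compound experiment. For H3K27me3 it ran from 0.0395 to 0.0539 and from 0.0298 to 0.0507 tags. Both siKDM6B33 libraries of each mark were deeper than both siCtrl libraries. The H3K27me3 libraries of the compound experiment also differed from those of the knockdown experiment in where their islands lay: 50.1% to 67.8% of their island length, genome-wide, fell inside H3K4me1 islands of the same treatment, against 8.88% to 11.5% in the knockdown experiment. H3K27me3 results of the compound experiment are therefore given beside the H3K4me1 islands they share.

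The reference sequences of the HAND2, GATA3 and ISL1 promoters are shown first, because H3K4me1 islands covered more of these promoters in both siKDM6B33 libraries than in either siCtrl library. Each is the 200 bp before the annotated start on the gene's own strand (GRCh37, the build of the files), written 5′ to 3′, and the capitals mark CG pairs. The HAND2 window lies at chr4:174451381-174451580 on the minus strand and overlaps an exon of the antisense RNA HAND2-AS1, the GATA3 window at chr10:8096451-8096650 on the plus strand lies in an intron of a longer GATA3 transcript, and the ISL1 window at chr5:50679082-50679281 on the plus strand overlaps an exon of the divergent transcript ISL1-DT.
HAND2 promoter: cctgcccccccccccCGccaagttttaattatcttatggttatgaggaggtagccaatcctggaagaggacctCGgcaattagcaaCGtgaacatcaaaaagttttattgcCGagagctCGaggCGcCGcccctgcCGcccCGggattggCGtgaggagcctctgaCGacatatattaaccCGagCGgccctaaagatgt
GATA3 promoter: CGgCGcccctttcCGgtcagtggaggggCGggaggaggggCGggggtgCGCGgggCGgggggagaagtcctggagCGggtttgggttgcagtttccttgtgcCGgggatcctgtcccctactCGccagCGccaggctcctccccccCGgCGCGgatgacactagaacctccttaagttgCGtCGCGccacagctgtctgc
ISL1 promoter: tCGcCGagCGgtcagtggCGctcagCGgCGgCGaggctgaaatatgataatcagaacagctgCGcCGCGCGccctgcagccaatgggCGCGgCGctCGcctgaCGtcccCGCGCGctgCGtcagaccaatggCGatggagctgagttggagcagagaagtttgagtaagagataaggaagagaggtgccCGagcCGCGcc
These windows held 13, 18 and 24 CG pairs, and the median over 19462 promoters was 16. The TFAP2B window, which lies in the untranslated region of another of its transcripts and is not shown, held 4 CG pairs, fewer than the other 7 members, and its H3K4me1 coverage was higher too.

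The second set are distal elements, shown because a narrow H3K4me1 peak was called there in all 8 H3K4me1 libraries. Of 494 merged peak regions in the 8 loci, 28 met this rule: 8 in the GATA2 locus, 7 at TBX2, 6 at KLF7, 4 at PHOX2A, 1 each at HAND2, GATA3 and ISL1, and 0 at TFAP2B. The number rests on short peaks: with 100 bp of overlap between each peak and its region, which here means peaks at least 100 bp long, 1 region remained, because 109 of the 224 peaks behind the 28 regions were that long. The counts over the 28 regions given further on, and the choice of the elements printed here, hold for the 28 only. Several of the 28 lie side by side, so they are not all separate elements. Each sequence below is the 201 bp centred on the summit, on the plus strand of GRCh37, and the capitals mark E-boxes (CANNTG), the words that helix-loop-helix factors such as HAND2 bind. The HAND2 element (chr4:174478053-174478253) lies in an intron of HAND2-AS1, the GATA2 element (chr3:128189478-128189678) in an intron of DNAJB8-AS1, and the GATA3 (chr10:8158830-8159030) and ISL1 (chr5:50694698-50694898) elements between genes.
HAND2 element: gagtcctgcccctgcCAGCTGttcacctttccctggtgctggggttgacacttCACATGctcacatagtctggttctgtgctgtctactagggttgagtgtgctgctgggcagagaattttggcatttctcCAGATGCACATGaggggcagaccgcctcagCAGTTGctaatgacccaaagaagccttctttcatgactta
GATA2 element: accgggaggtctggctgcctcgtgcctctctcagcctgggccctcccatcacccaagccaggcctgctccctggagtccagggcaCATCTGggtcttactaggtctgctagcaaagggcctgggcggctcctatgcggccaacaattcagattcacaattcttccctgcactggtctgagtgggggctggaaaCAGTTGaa
GATA3 element: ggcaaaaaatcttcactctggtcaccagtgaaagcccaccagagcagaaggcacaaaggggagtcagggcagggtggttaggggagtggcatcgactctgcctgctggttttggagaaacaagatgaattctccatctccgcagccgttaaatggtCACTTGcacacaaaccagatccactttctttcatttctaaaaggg
ISL1 element: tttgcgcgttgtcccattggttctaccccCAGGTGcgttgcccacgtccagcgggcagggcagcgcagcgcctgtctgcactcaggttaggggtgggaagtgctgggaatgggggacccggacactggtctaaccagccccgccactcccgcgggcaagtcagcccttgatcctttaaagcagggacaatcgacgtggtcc
The HAND2 element held 5 E-boxes, the GATA2 element 2, and the GATA3 and ISL1 elements 1 each. Over the 28 regions, 14 held an E-box in the same window, and 65.7% of all 10832 regions of the genome called in all 8 libraries did. The GATA word GATAA was in 4 of the 28 windows against 18.3% of all regions, the AP-2 word GCCNNNGGC in 3 against 17.9%, the T-box word GGTGTG in 5 against 14.3%, and the homeodomain word TAATTA in 0 against 3.15%. Each word was searched on both strands, and matches to different words could overlap. In the 200 bp before the starts of the 8 members, GATAA was in 2 (12.4% of all promoters), CANNTG in 3 (48.5%), GCCNNNGGC in 1 (22.6%), GGTGTG in 3 (11.2%) and TAATTA in 1 (2.14%).

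In control cells the 8 loci carried broad H3K4me1. In the siCtrl libraries every member locus had islands, and their coverage stood between the 78.9th and 98.9th percentile of all protein-coding loci. The GATA2 locus (gene at chr3:128198270-128212044, minus strand) was the most covered in the second library, at 48.5% and 52.1% of its length, followed by the TBX2 locus (chr17:59477204-59486827, plus strand) at 49.6% and 47.8%. These 2 overlapped between libraries and were not told apart. KLF7 (chr2:207938861-208038580, minus strand), the longest gene of the set, was covered over 37.6% and 39.8%. Below them, HAND2 (chr4:174446120-174451380, minus strand) stood at 30.4% and 30.0%, above GATA3 (chr10:8087341-8117161, plus strand) at 28.8% and 25.9%. PHOX2A (chr11:71950121-71956708, minus strand) at 23.8% and 24.4% and ISL1 (chr5:50679282-50690564, plus strand) at 23.9% and 23.4% overlapped each other. TFAP2B (chr6:50786436-50815332, plus strand) was lowest at 12.1% and 12.4%, clear of all the others. The windows include neighbours: part of the PHOX2A value lies over INPPL1, FOLR2 and CLPB, and part of the TBX2 value over BCAS3.

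By comparison, the median over the members in siCtrl cells was 29.6% and 28.0%. It was 13.9% and 12.9% over 12 other adrenergic factors, from HAND1 at 50.2% and 52.9% down to SOX11 and SATB1 at 0 in both. Over 16 regulators of the mesenchymal state it was 3.48% and 2.09%, from FOSL1 at 27.1% and 27.6% down to PRRX1, MEOX1, MEOX2 and SIX4 at 0 in both. By H3K4me1 extent the members thus lay above most of the mesenchymal regulators.

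**Figure D1:**
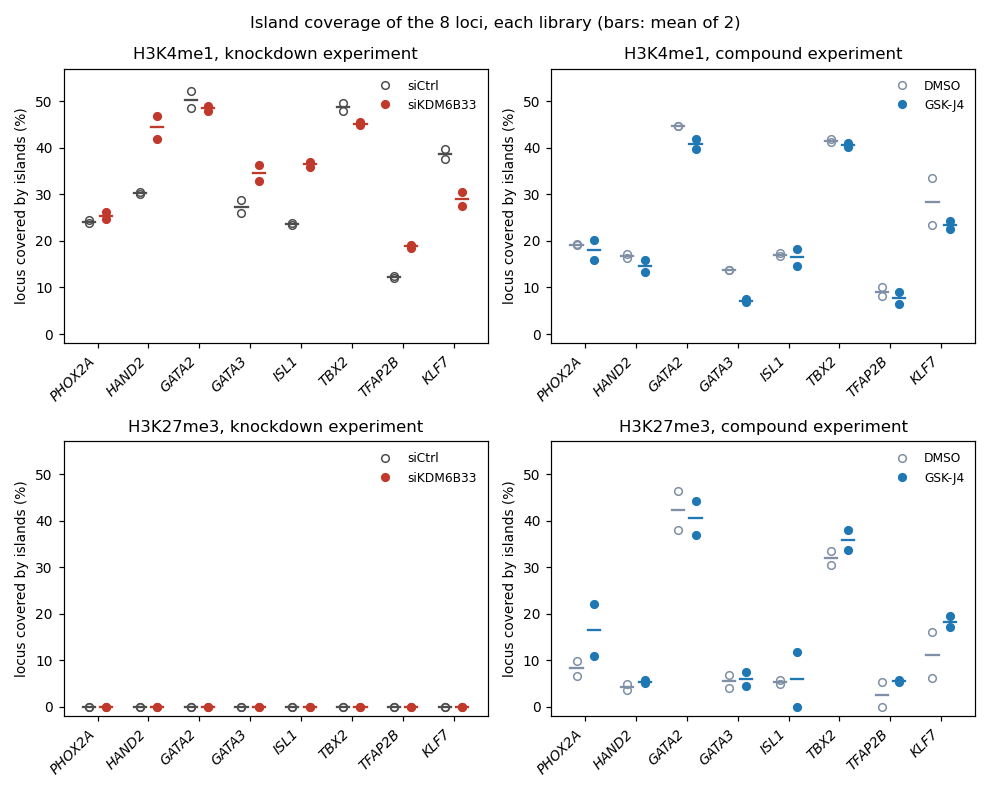
Percent of each locus (gene body with 50 kb on each side) covered by islands, for H3K4me1 (top) and H3K27me3 (bottom) in the knockdown (left) and compound (right) experiments; each point is 1 library and each bar the mean of 2. After the knockdown HAND2, GATA3, ISL1, TFAP2B and, by a small margin, PHOX2A lie above both controls and KLF7 and TBX2 below, and all H3K27me3 points of the knockdown experiment lie at 0.

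The knockdown comparison asks how the marks at these loci change when KDM6B is depleted. H3K4me1 coverage rose at HAND2, GATA3, ISL1 and TFAP2B and fell at KLF7 (limma over 15933 loci, adjusted p under 0.05). In all, both siKDM6B33 libraries lay above both siCtrl libraries at 5 of 8 members, where 67.7% of all loci with any H3K4me1 did, and below them at 2 of 8, where 15.0% did. With limma, 53.2% of all loci were called higher and 8.53% lower. The members' median difference was 3.95 percentage points, beside 2.36 over all loci with any island. For any single locus the exact two-sided permutation test of 2 libraries against 2 cannot give a p under 0.333, and this value was reached at each of the 7 members named.

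HAND2, the helix-loop-helix factor of sympathetic precursors, had coverage of 30.4% and 30.0% in siCtrl and 41.8% and 46.9% in siKDM6B33 libraries. The difference was 14.2 points (limma adjusted p = 0.0146). When every library was cut to the same covered length, 4 members remained higher and 2 lower (60.2% and 20.7% of all loci with any island), and the HAND2 values became 30.4% and 30.0% against 35.9% and 33.4%, still apart but closer. On that scale the differences were 4.47 points at HAND2, 10.1 at ISL1, 6.59 at TFAP2B and -10.3 at KLF7, and PHOX2A overlapped. ISL1, a LIM-homeodomain factor, went from 23.9% and 23.4% to 35.9% and 37.0%, a difference of 12.9 points (limma adjusted p = 0.00384). At ISL1 the replicates of each group lay close together and the groups far from overlap.

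GATA3 had 28.8% and 25.9% in siCtrl and 32.8% and 36.2% in siKDM6B33 libraries, a difference of 7.16 points (limma adjusted p = 0.0497), and at equal covered length 28.8% and 25.9% against 32.8% and 30.2%. TFAP2B went from 12.1% and 12.4% to 18.5% and 19.2%, a difference of 6.59 points (limma adjusted p = 0.00696). PHOX2A stood at 23.8% and 24.4% in siCtrl and 24.8% and 26.1% in siKDM6B33 libraries, apart but with limma adjusted p = 0.315. The first 4 of these genes were thus called higher by both rules and PHOX2A by the non-overlap alone.

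In the other direction, KLF7 had 37.6% and 39.8% in siCtrl and 27.5% and 30.5% in siKDM6B33 libraries, and fell by 9.61 points (limma adjusted p = 0.0194). TBX2 was at 49.6% and 47.8% against 44.9% and 45.5%, apart but with limma adjusted p = 0.0980. GATA2 overlapped, at 48.5% and 52.1% against 47.9% and 49.0%. The 3 most covered loci of the control cells were thus the 3 that did not lie higher after the knockdown.

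Since most loci of the genome gained coverage, ranks were also compared. HAND2 moved from percentile 94.0 and 94.1 of all loci to 96.6 and 97.9, ISL1 from 90.4 and 90.6 to 94.6 and 95.2, and TFAP2B from 78.9 and 79.8 to 82.1 and 83.3. GATA3 overlapped, at 93.4 and 92.2 against 93.3 and 94.9. PHOX2A went the opposite way in rank, from 90.4 and 91.3 to 88.2 and 89.4, as did GATA2, TBX2 and KLF7, so by rank 3 members lay higher and 4 lower. The share of all loci apart by rank was not counted, so these numbers cannot be set beside the genome.

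The gained stretches took in transcription starts. In siCtrl cells 5 and 6 of the 8 annotated starts lay inside an H3K4me1 island, and in siKDM6B33 cells 8 and 8 did. Coverage of the promoter window, 1 kb on each side of a gene's starts, was 0 in both siCtrl libraries and 100% in both siKDM6B33 libraries at HAND2 and at TFAP2B. ISL1 went from 0 and 77.3% to 100% in both, and GATA3 from 82.4% and 63.6% to 100% in both. PHOX2A, GATA2, TBX2 and KLF7 were already covered over 91.0% or more in each siCtrl library and reached 100% in each siKDM6B33 library. Promoter windows were apart and higher at 4 of 8 members and lower at 0 of 8, beside 66.0% higher and 3.10% lower over all promoters with any island. Over all genes with a protein-coding start, the share with a start inside an island went from 23.7% and 24.1% to 57.6% and 57.7%, so starts newly inside an island, as at HAND2 and TFAP2B, were common across the genome. The GATA3 start was inside an island in both siCtrl libraries and the ISL1 start in 1 of them.

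Around the start the islands of the control libraries left a gap. In the bin from 1 to 2 kb downstream of the start, which was chosen after the profile was seen, 1.54 and 3.20 of the 8 genes were covered in siCtrl libraries, counting part-covered genes by their share. In siKDM6B33 libraries the same bin held 8 and 7.32. Over 19462 starts of the genome this bin was covered at 15.5% and 15.1% in siCtrl and at 44.3% and 44.1% in siKDM6B33 libraries. Further in, from 10 to 11 kb downstream, members were covered in all 4 libraries, at 7.73 and 7.78 genes in siCtrl and 8 and 8 in siKDM6B33, where 7.50% to 8.82% of all starts were. This bin lies in the stretch of the profile where the members were most covered, so its contrast with all starts is not a test. Islands at this distance were thus present at the members with or without the knockdown.

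**Figure D2:**
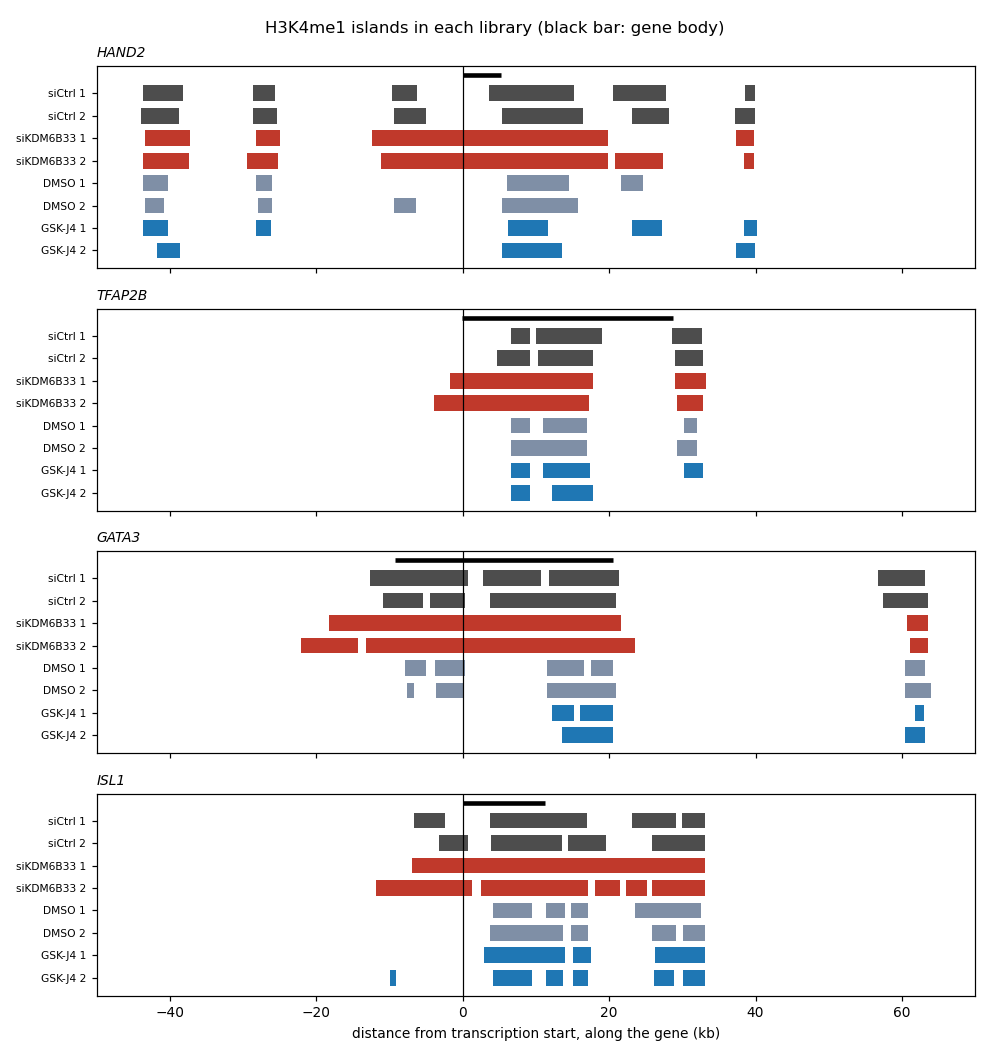
H3K4me1 islands in each of the 8 H3K4me1 libraries at HAND2, TFAP2B, GATA3 and ISL1, by distance from the transcription start along the gene (kb, negative upstream); the black bar is the gene body and the vertical line the start. In both siKDM6B33 libraries an island crosses each of the 4 starts. In the GSK-J4 libraries none does, and in the DMSO libraries only the GATA3 start is crossed.

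The stretches themselves can be placed. At HAND2, 8.60 kb at chr4:174447801-174456400, from -5.02 to 3.58 kb of the start, was in islands of both siKDM6B33 libraries and of neither siCtrl library. A further 3.40 kb lay at 16.4 to 19.8 kb downstream, and 1.60 kb at -11.2 to -9.62 kb overlapped exons of HAND2-AS1. At TFAP2B, 6.40 kb at chr6:50784801-50791200 across the start was gained. At both genes the start itself lay in the gained stretch.

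At GATA3, 4.00 kb was gained between genes at -18.2 to -14.3 kb and 2.00 kb at 0.750 to 2.75 kb inside the gene. The same locus lost 3.40 kb at 57.4 to 60.7 kb downstream, beside the element shown above, so the 2 ends of the locus moved in opposite directions. At ISL1 the gains were 1.20 kb at 2.52 to 3.72 kb, 2.00 kb at 19.5 to 21.5 kb and smaller stretches. KLF7 lost 10.2 kb in all and gained 0, with 3.80 kb at 41.5 to 45.3 kb in the body, over KLF7-IT1, and 2.80 kb at 89.7 to 92.5 kb over its 3′ end. TBX2 lost 3.00 kb, all in introns of BCAS3 at -29.4 to -25.2 kb, and gained 0.

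Over the 8 loci, 34.4 kb was in islands of both siKDM6B33 libraries and of neither siCtrl library, and 18.2 kb showed the opposite. A further 246 kb was in islands of all 4 libraries, and over 118 kb the replicates of a group differed. The stretch over which replicates disagreed was thus longer than the gains and losses together.

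**Figure D3:**
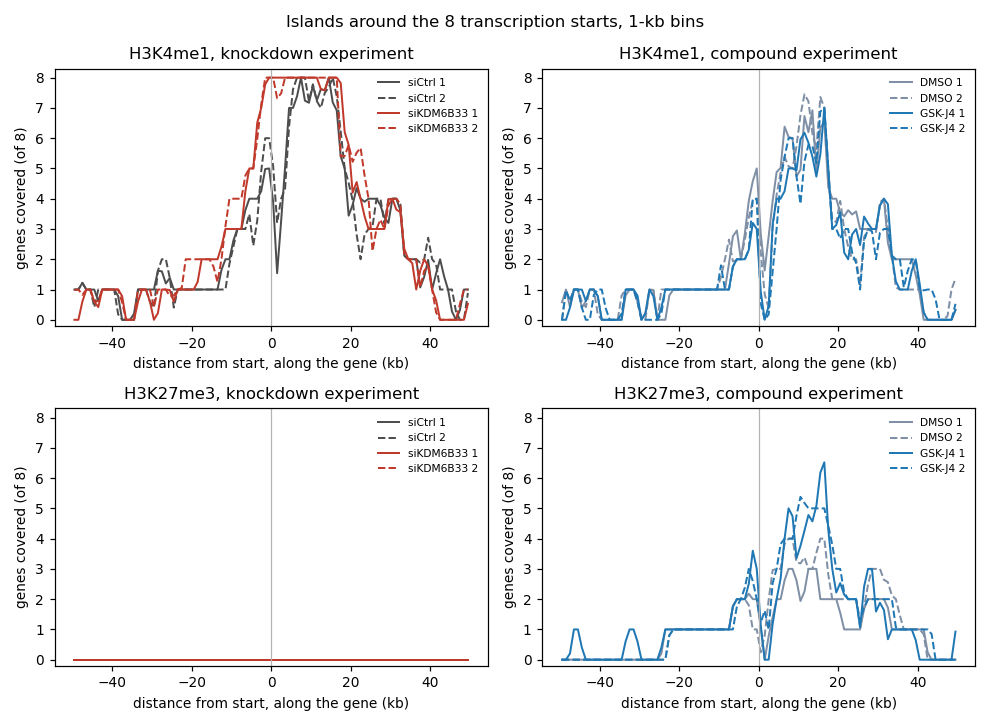
Number of the 8 genes covered by islands in 1-kb bins by distance from the transcription start (kb, along the gene); lines are single libraries, solid for replicate 1 and dashed for replicate 2. In the bin from 1 to 2 kb the siCtrl libraries drop to 1.54 and 3.20 genes and the siKDM6B33 libraries stay at 8 and 7.32; the H3K27me3 lines of the knockdown experiment lie at 0 throughout.

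Narrow peaks give the strength of single elements. A summit is given as its pileup over the genome background of its own library. This scaling is meant to allow for depth, and how well it does so was not tested. H3K4me1 peaks were more numerous in both siKDM6B33 libraries at 4 of 8 members and fewer at 0 of 8, beside 46.2% and 16.2% of all loci with any peak. ISL1 went from 16 and 14 peaks to 38 and 41, and GATA3 from 12 and 13 to 28 and 29. HAND2 went from 26 and 22 to 33 and 32, and TFAP2B from 11 and 12 to 22 and 13. These are the same 4 genes whose coverage rose.

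The strongest summit of each locus, a measure added after the coverage was seen, was apart at all 8 members. It was higher at 5 (62.4% of all loci with any peak) and lower at 3 (19.7%). At PHOX2A, a homeodomain factor of noradrenergic neurons, it was 399 and 342 times background in siCtrl and 683 and 685 in siKDM6B33 libraries. At ISL1 it was 244 and 365 against 608 and 685, and at TFAP2B 200 and 177 against 440 and 428. HAND2 (189 and 236 against 337 and 343) and GATA3 (532 and 483 against 598 and 580) were also higher. The 3 lower loci were TBX2 at 1890 and 1740 against 1410 and 1400, KLF7 at 477 and 495 against 449 and 390, and GATA2 at 1040 and 1080 against 963 and 1010. These 3 calls depend on the division by background. In tags GATA2 was higher after the knockdown (94 and 92 against 103 and 106), and TBX2 (170 and 148 against 151 and 147) and KLF7 (43 and 42 against 48 and 41) overlapped, while the 5 higher loci stayed higher. The strongest summit need not be the same element in every library. At GATA3 the element that held it in siCtrl cells, 62.3 kb downstream, was at 159 and 143 in siKDM6B33 libraries, so the higher value there belongs to another element.

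At the 28 elements called in every H3K4me1 library, 1 of which met the stricter overlap, the balance was the other way. Both siKDM6B33 summits lay above both siCtrl summits at 10 elements and below at 16, beside 25.3% higher and 55.7% lower over the 10832 such regions of the genome, and the median log2 ratio was -0.52 beside -0.45. In tags, not divided by background, 10 were higher and 14 lower, beside 32.4% and 43.2%. The GATA2 element shown above, 22.5 kb downstream of the start, was at 1040 and 1080 times background in siCtrl and 421 and 314 in siKDM6B33 libraries. The GATA3 element, 62.3 kb downstream, was at 532 and 483 against 159 and 143. The ISL1 element, 15.5 kb downstream, went the opposite way, at 244 and 247 against 608 and 685. The HAND2 element, at -26.8 kb, overlapped, at 77.6 and 141 against 131 and 85.6.

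Loci differed in how their elements moved. All 4 PHOX2A elements were higher after the knockdown, and the one at -0.123 kb of the start went from 189 and 342 to 683 and 685. At GATA2, 6 of 8 elements were lower, all from 22.5 to 58.0 kb downstream, and the 2 higher ones lay at -2.32 and 11.5 kb. At TBX2, 6 of 7 elements, in BCAS3, were lower and 0 higher (4 lower in tags). KLF7 was split, with 3 higher and 3 lower. Neighbouring regions were counted singly. At GATA2 those at 23.1, 22.9 and 22.5 kb lie side by side, as do those at 34.7 and 34.2 kb. At TBX2 those from -16.2 to -14.8 kb do too. Over the 10832 such regions of the genome 25.3% were higher and 55.7% lower.

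**Figure D4:**
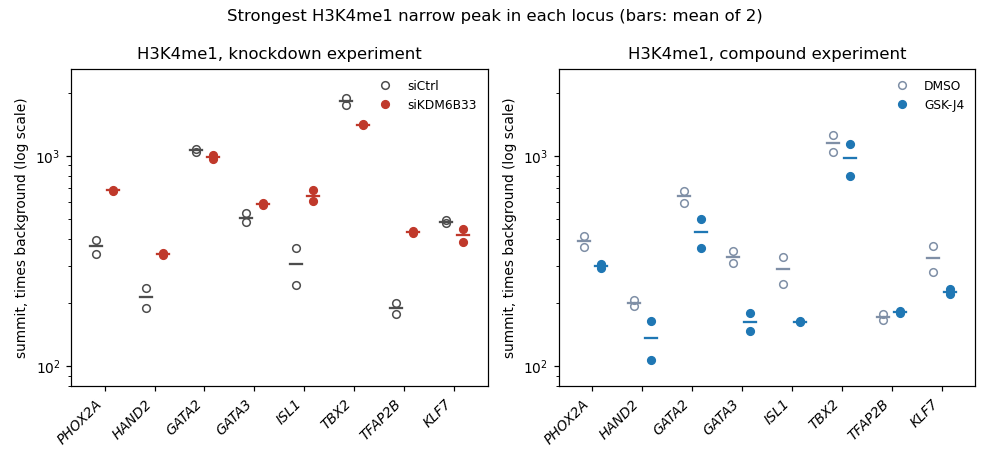
Strongest H3K4me1 narrow peak summit in each locus, in times the genome background of its library (log axis), for the knockdown (left) and compound (right) experiments; each point is 1 library and each bar the mean of 2. After the knockdown 5 loci lie higher and 3 lower (the 3 were not lower in tags), and with GSK-J4 6 lie lower and TFAP2B slightly higher (not in tags).

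H3K27me3 did not extend to these loci in the knockdown experiment. No island lay in any of the 8 loci in any of the 4 libraries, while 39.5% to 41.8% of all loci had one, so none of them entered the comparison of the groups. Promoter windows were likewise at 0 throughout. The nearest island to the TFAP2B start was 99.0 and 92.0 kb away in siCtrl and 102 and 93.6 kb in siKDM6B33 libraries. At PHOX2A and GATA2 it was 456 and 439 kb away in every library, and at TBX2 921 and 1250 kb in siCtrl and 738 and 738 kb in siKDM6B33 libraries. For the other members it was 175 to 991 kb away.

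Narrow H3K27me3 peaks were nearly absent too. The 4 libraries together had 25 peaks in the 8 loci, with a median summit of 2 tags and a highest of 5, and 84.0% of them had 3 tags or fewer. Only ISL1 was apart, with 0 and 0 peaks in siCtrl and 2 and 1 in siKDM6B33 libraries, beside 20.3% of all loci with any peak higher and 6.45% lower, and it overlapped at equal numbers of peaks and with stricter peaks. At equal numbers TBX2 alone was apart, and lower, and with stricter peaks KLF7 alone, and higher. Strongest H3K27me3 summits were higher at ISL1 and KLF7 and lower at TBX2 (12.1% and 31.5% of all loci with any peak), all rested on peaks of at most 5 tags, and in tags TBX2 overlapped. Among the comparison lists, 4 of 12 other adrenergic factors had an H3K27me3 island in each of the 4 libraries, with 2 of them higher and 1 lower after the knockdown. Of the 16 mesenchymal regulators 9 to 11 had one, with 5 of them higher and 0 lower, beside 39.8% and 12.5% of all loci with any island.

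The compound comparison asks the same of GSK-J4. H3K4me1 coverage was apart and lower at GATA3, GATA2, HAND2 and TBX2, that is at 4 of 8 members and higher at 0 of 8, beside 19.1% and 25.8% of all loci with any H3K4me1. With limma 0 of 12263 loci passed an adjusted p of 0.05, in the members or elsewhere. The members' median difference was -1.83 points and that over all loci with any island 0.0804 points.

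GATA3 had 13.7% and 13.7% in DMSO and 6.78% and 7.55% in GSK-J4 libraries, a difference of -6.55 points and the largest of the 8, at limma adjusted p = 0.124. GATA2 had 44.6% and 44.6% against 41.8% and 39.7%, and HAND2 16.3% and 17.1% against 15.8% and 13.3% (at equal covered length 13.5% and 17.1% against 10.1% and 10.3%). TBX2 was at 41.8% and 41.2% against 40.1% and 41.0%, a difference of under 1 point. PHOX2A (19.3% and 19.1% against 15.8% and 20.1%), ISL1 (17.4% and 16.7% against 18.2% and 14.7%), TFAP2B (8.07% and 10.2% against 9% and 6.36%) and KLF7 (33.4% and 23.4% against 22.5% and 24.3%) overlapped. At equal covered length PHOX2A (19.3% and 19.1% against 15.8% and 19.0%) and KLF7 (29.8% and 23.4% against 19.7% and 21.2%) were lower too, which made 6 of 8 members lower and 0 higher, beside 24.0% and 22.4% of all loci with any island. At KLF7 the 2 DMSO libraries differed from each other by more than the group means did.

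Promoter windows were apart and lower at GATA3, GATA2 and PHOX2A, 3 of 8 (5 of the 8 had any island), and higher at 0 of 8, beside 17.0% and 6.86% of promoters with any island. GATA3 went from 63.6% and 54.2% to 0 and 0, GATA2 from 100% and 77.5% to 73.8% and 26.9%, and PHOX2A from 61.0% and 91.0% to 51.0% and 51.0%. The GATA3 loss was one stretch of 3.80 kb at chr10:8093001-8096800 that reached from -3.65 to 0.149 kb of the start and took in exons of GATA3-AS1. HAND2, ISL1 and TFAP2B promoters were at 0 in DMSO libraries and could not be lower. TBX2 and KLF7 overlapped.

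The strongest H3K4me1 summit was lower in both GSK-J4 libraries at 6 of 8 members and higher at 1, beside 26.8% and 17.3% of all loci with any peak. GATA3 had 352 and 310 times background in DMSO and 146 and 179 in GSK-J4 libraries (within 10 kb of the gene the difference was 14.5, of the opposite sign), ISL1 246 and 331 against 164 and 161, and GATA2 598 and 683 against 365 and 501. PHOX2A (369 and 414 against 292 and 304), HAND2 (193 and 207 against 164 and 107) and KLF7 (281 and 372 against 219 and 233) were also lower. TFAP2B was higher by a small margin, at 176 and 166 against 183 and 179, and TBX2 overlapped. These summits were low, in GSK-J4 libraries 9 and 6 tags at HAND2, 8 and 10 at GATA3 and 9 and 9 at ISL1. At TFAP2B they were 10 and 8 tags in DMSO and 10 and 10 in GSK-J4 libraries, so in tags the groups overlapped. Peak numbers were lower at PHOX2A, HAND2 and GATA2 and higher at TFAP2B (9.66% and 16.8% of all loci with any peak).

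At the same 28 elements, 1 of which met the stricter overlap, both GSK-J4 summits lay below both DMSO summits at 13 and above at 0, beside 37.4% and 13.0% of the 10832 regions of the genome, and in tags 10 were lower and 0 higher, beside 28.0% and 12.3%. The GATA3 element was at 352 and 310 against 146 and 179, the GATA2 element at 598 and 683 against 347 and 501, and the ISL1 element at 246 and 331 against 164 and 143. The HAND2 element was at 87.9 and 82.8 against 54.8 and 53.7. The GATA3 and GATA2 elements were therefore lower in both experiments, and the ISL1 element was higher after the knockdown and lower with GSK-J4.

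**Figure D5:**
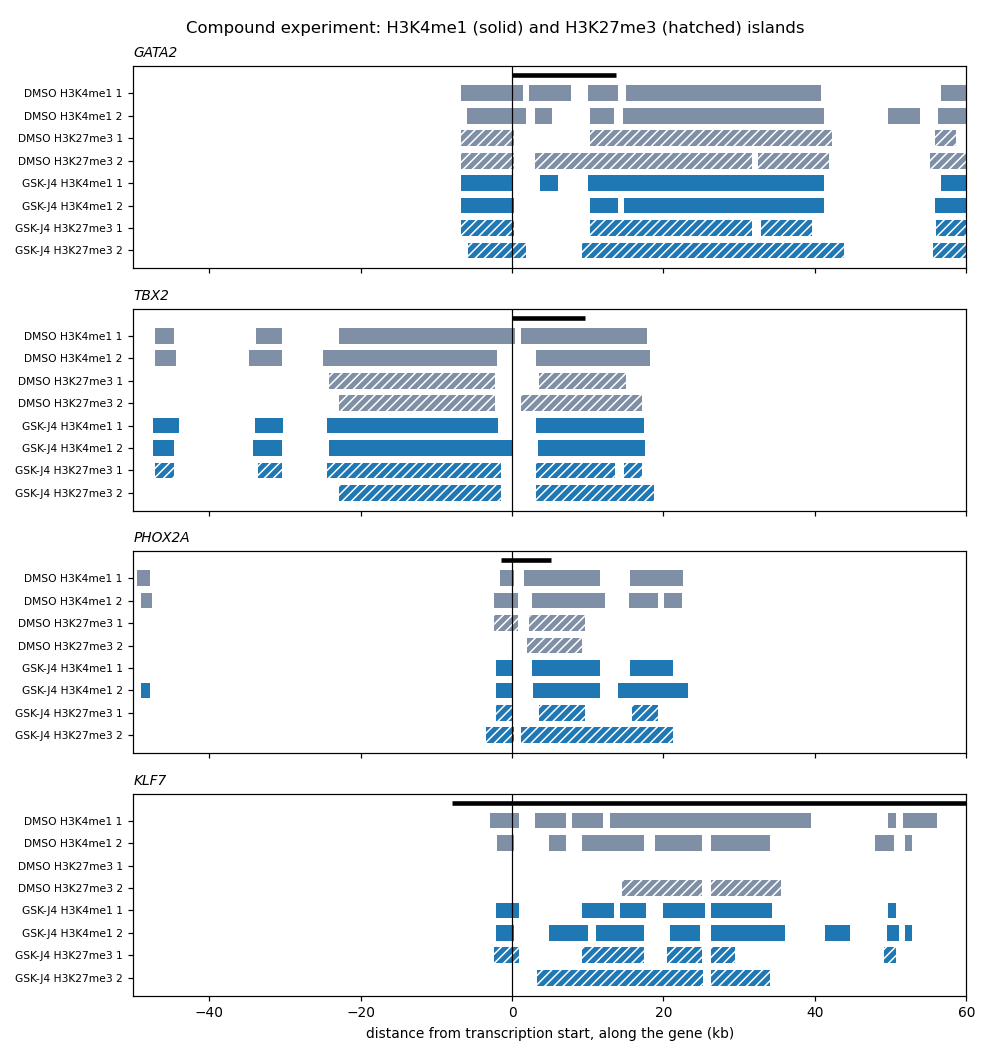
Islands of H3K4me1 (solid) and H3K27me3 (hatched) in each library of the compound experiment at GATA2, TBX2, PHOX2A and KLF7, by distance from the transcription start along the gene (kb); the black bar is the gene body. Hatched bars lie largely under solid ones, and over the 8 loci 82.3% to 95.8% of H3K27me3 island length was inside H3K4me1 islands of the same treatment.

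In the compound experiment H3K27me3 islands were called in 7 or 8 of the 8 loci in every library, unlike in the knockdown experiment. They lay over the same stretches as H3K4me1: of 119 and 152 kb in DMSO and 165 and 169 kb in GSK-J4 libraries, 82.3% to 95.8% was inside an H3K4me1 island of the same treatment, where 50.1% to 67.8% was genome-wide. The 2 loci richest in H3K4me1 were also richest in H3K27me3. For TBX2 the share was 94.5% to 100% over all pairs of libraries, and for GATA3, the lowest, 20.7% to 100%. What brought the 2 marks together was not tested. The values that follow are those of libraries labelled H3K27me3, and how far they measure that mark apart from H3K4me1 cannot be told from the region lists.

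Against that background, coverage by islands of the libraries labelled H3K27me3 was apart and higher with GSK-J4 at PHOX2A, HAND2, TBX2 and KLF7, 4 of 8, and lower at 0 of 8, beside 18.3% and 10.4% of all loci with any island. With limma 0 of 11221 loci passed. PHOX2A had 9.94% and 6.75% in DMSO and 10.9% and 22.1% in GSK-J4 libraries, and KLF7 6.21% and 16% against 17.1% and 19.5%. TBX2 had 30.5% and 33.4% against 37.9% and 33.8%, and HAND2 3.61% and 4.94% against 5.13% and 5.70%. In each of these the nearest values of the groups lay close, and the replicates of at least 1 group were far apart in PHOX2A and KLF7.

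GATA2 (38.1% and 46.3% against 37.0% and 44.2%), GATA3 (6.78% and 4.16% against 7.55% and 4.47%), ISL1 (5.75% and 5.03% against 11.9% and 0) and TFAP2B (0 and 5.28% against 5.74% and 5.28%) overlapped. When all 4 libraries were cut to the same covered length, 1 member remained higher (10.3% of all loci with any island) and 0 were lower (15.6%). Over the 8 loci, 9.40 kb was in islands of both GSK-J4 libraries and neither DMSO library, 3.60 kb the opposite, and over 128 kb the replicates of a group differed. The largest gained stretches were 5.20 kb in an intron of KLF7 at 9.27 to 14.5 kb and 3.40 kb over INPPL1 at 15.8 to 19.2 kb from the PHOX2A start.

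Promoter windows held H3K27me3 islands in the compound experiment at PHOX2A, GATA2 and KLF7, and the groups overlapped at all of them, beside 5.30% of promoters higher and 5.38% lower. HAND2, GATA3, ISL1, TBX2 and TFAP2B promoters were at 0 in all 4 libraries. Narrow peaks of the libraries labelled H3K27me3 were more numerous with GSK-J4 at 5 of 8 members and fewer at 0 of 8, beside 28.9% and 2.34% of all loci with any peak. They were PHOX2A (1 and 4 against 8 and 5), HAND2 (4 and 3 against 6 and 9), GATA2 (4 and 4 against 10 and 7), GATA3 (3 and 3 against 6 and 7) and ISL1 (4 and 2 against 7 and 5). At equal numbers of peaks per library 3 remained higher and 0 were lower, beside 11.6% and 11.2% of all loci with any peak, and the differences at HAND2 and ISL1, of 4.00 and 3.00 peaks, became 0. Both GSK-J4 libraries were deeper than both DMSO libraries, and 29.1% of the 189 peaks in these loci had 3 tags or fewer. The strongest H3K27me3 summit was higher at TBX2 (470 and 562 against 612 and 700 times background) and ISL1 (168 and 118 against 197 and 189) and lower at GATA2 (302 and 384 against 296 and 216) and HAND2 (134 and 118 against 98.7 and 108), beside 14.7% and 24.0% of all loci with any peak. In tags GATA2 (9 and 13 against 15 and 8) and HAND2 (4 and 4 against 5 and 4) overlapped.

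The comparison lists give the setting of these counts. With GSK-J4, H3K4me1 coverage was apart and lower at 4 of 12 other adrenergic factors and higher at 1, and lower at 3 of 16 mesenchymal regulators and higher at 2. Any island was present at 11 and 13 of these genes, and 19.1% of all loci with any island were lower and 25.8% higher. After the knockdown H3K4me1 coverage was higher at 6 of 12 and lower at 3, and higher at 9 of 16 and lower at 2. Here 12 and 15 genes had any island, beside 67.7% higher and 15.0% lower over all loci with any island. H3K27me3 coverage with GSK-J4 was higher at 2 of 12 and 0 of 16 and lower at 1 and 2. Of these lists 11 and 13 genes had any island, beside 18.3% higher and 10.4% lower over all loci with any island.

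For each member the protein-coding gene with the most similar coverage over the 16 libraries, at least 1 Mb away, was looked up by the mean absolute difference. It was NYAP1 for PHOX2A (1.58 points), DQX1 for HAND2 (1.37), CCDC183 for GATA2 (2.15), SYNPO2 for GATA3 (1.64), TMEM108 for ISL1 (1.62), ARVCF for TBX2 (1.5), TLCD2 for TFAP2B (0.908) and SH3BP2 for KLF7 (2.15).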

How the data were processed

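H3K4me1 and H3K27me3 CUT&Tag was analysed in 16 BE2C libraries, grouped and numbered from the sample titles. The authors trimmed reads with Trim Galore 0.4.4, aligned them to hg19 with BWA 0.7.12, dropped duplicates (Picard 1.65) and retained unique proper pairs of a set fragment length. Per the labels SAMtools 1.3.1 and bedtools 2.25.0 were also used. Islands were called with SICER 1.1 and narrow peaks with MACS2, given as version 2.1.1 per the labels. Each deposited island carries the caller's score, a sum over windows, which served only for ranking. The deposited narrow peak lists give a fold enrichment (a ratio), −log10 p-values and −log10 q-values, from which the summit pileup in tags and the background were solved. Deposited columns of another kind were not used. Neither reads nor the E. coli scaling of the study were used here, so depth is known only through the genome background.

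A locus was the gene body with 50 kb on each side (GENCODE 44 on GRCh37), and a promoter window 1 kb on each side of protein-coding starts. Groups were called apart when both treated libraries lay above, or below, both controls, and shares are of the loci with any island, or any peak, in the 4 libraries compared, out of 19739. Single values were compared by exact permutation of group means, two-sided. limma 3.58.1 in R 4.3.3 tested percent coverage over all loci with any island, with Benjamini-Hochberg adjustment. Python 3.11.15, NumPy 2.4.6, pandas 2.3.3, SciPy 1.17.1 and matplotlib 3.10.9 were used, and the scripts were tested on simulated data. The 8 genes and the comparison lists were chosen with earlier results of these data known. All 8 members are named, with genes inside their loci, the extremes of each comparison list and the closest gene by coverage. The printed distal elements are, for 4 members, the recurrent region outside exons with the highest minimum summit. Region lists were called library by library, so a gap can mean signal under the caller's threshold. Alternatives were windows of 10 kb, equal covered length or number of peaks, stricter lists, ranks, limma, summits in tags, same-numbered differences and leaving out each library.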

Additional observations from a re-analysis of the deposited data

Results flagged for a closer look

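The direction of some members differed between the experiments, with both treated libraries on one side of both controls after the knockdown and on the other side with GSK-J4. These differences between the experiments were not tested, and the share of all loci that differ in this way was not counted. For H3K4me1 locus coverage, 67.7% of all loci with any island were higher after the knockdown and 19.1% lower with GSK-J4. Both siKDM6B33 libraries were deeper than both controls, and by rank GATA3 coverage overlapped after the knockdown. For H3K4me1 locus coverage the difference, treated minus control, at HAND2 was 14.2 points after the knockdown and -2.19 with GSK-J4, and at GATA3 7.16 and -6.55 points. For H3K4me1 promoter coverage it was 27 and -58.9 points at GATA3. The number of H3K4me1 narrow peaks at HAND2 differed by 8.50 and -3.50. The strongest H3K4me1 summit, in times background, differed by 313 and -93.4 at PHOX2A, by 128 and -64.3 at HAND2, by 81.8 and -169 at GATA3 and by 342 and -126 at ISL1. At GATA3 these are different elements: the one that held the siCtrl maximum, 62.3 kb downstream, was lower in both experiments, and within 10 kb of the gene the GSK-J4 difference was 14.5. The strongest H3K27me3 summit at TBX2 differed by -31.3 and 140, where the knockdown value rests on peaks of at most 5 tags and the groups overlapped in tags.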

How the results depend on the processing

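With 2 libraries in a group, no single value could pass a permutation test, and limits below are counts of the 8 members. For 10-kb windows, stricter lists, ranks and left-out libraries the share of all loci was not counted. Under those settings a moved count cannot be told from a shift of loci at large. Percentile ranks put 8 members lower in H3K27me3 coverage after the knockdown in place of 0, which follows from ties at 0: the shared rank went from 30.2 to 29.1 as more loci gained islands. For H3K4me1 after the knockdown, ranks gave 3 higher in place of 5 and 4 lower in place of 2, 10-kb windows gave 1 lower, and limma 1 lower. With GSK-J4, H3K4me1 coverage was lower at 2 members with 10-kb windows, 2 with stricter islands, 6 at equal covered length, 5 by rank and 0 with limma, in place of 4. H3K27me3 coverage with GSK-J4 was higher at 2 members with 10-kb windows, 1 at equal covered length, 2 with stricter islands, 2 by rank and 0 with limma, in place of 4. Narrow H3K27me3 peaks were apart at 2 members with 10-kb windows in place of 1 after the knockdown, and at 3 with 10-kb windows and 3 at equal numbers of peaks in place of 5 with GSK-J4. The 28 recurrent H3K4me1 regions became 1 when 100 bp of overlap was required. For single genes whose groups were apart, the sign turned at PHOX2A in H3K4me1 coverage after the knockdown by rank (-2.03 percentiles), at TBX2 after the knockdown with 10-kb windows (1.35 points), at TBX2 with GSK-J4 and stricter islands (0.912 points), and at GATA3 in the strongest H3K4me1 summit with GSK-J4 within 10 kb (14.5 times background). In tags, an alternative chosen after seeing the data, the strongest H3K4me1 summit turned at GATA2 (11.5 tags) and KLF7 (2.00 tags) after the knockdown and the H3K27me3 one at HAND2 and GATA2 with GSK-J4 (0.500 tags each). Over all single-gene values and alternatives, 668 kept their call, 110 became apart, 47 ceased to be apart and these 8 turned. By sign alone 744 stayed, 47 turned and 42 had a value of 0. Of the 47 that turned, 27 overlapped under both settings and 12 became apart, so the direction of overlapping members should not be read. The cause of these changes was not tested.

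Leaving out 1 library makes groups easier to set apart. Narrow H3K27me3 peaks after the knockdown were apart at 2 to 5 members, with 3 without siKDM6B33 replicate 1, 4 without siCtrl replicate 1, 5 without siKDM6B33 replicate 2 and 2 without siCtrl replicate 2. The strongest H3K27me3 summit after the knockdown was apart at 5 without siKDM6B33 replicate 1 and 6 without siCtrl replicate 1, in place of 3, and with GSK-J4 at 7 without GSK-J4 replicate 1, in place of 4. H3K27me3 with GSK-J4 was higher at 7 without GSK-J4 replicate 2 and lower at 1 when any of GSK-J4 replicate 1, GSK-J4 replicate 2 or DMSO replicate 1 was dropped, in place of 0. Its promoter windows were apart at 2 with either DMSO replicate left out and at 1 without GSK-J4 replicate 2, in place of 0, and its narrow peaks at 8 without GSK-J4 replicate 2. For H3K4me1, promoter windows after the knockdown were apart at 7 without siCtrl replicate 2 and narrow peaks at 7 without siKDM6B33 replicate 2, in place of 4. With GSK-J4, coverage was higher at 1 without either GSK-J4 replicate, in place of 0, and promoter windows were apart at 5 without DMSO replicate 2, in place of 3.

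Groups shared replicate numbers but only 2 pairs, and the deviations of same-numbered libraries correlated at 0.0134 and 0.141 for H3K27me3 and -0.00794 and -0.132 for H3K4me1 (knockdown and GSK-J4), so the numbers were not taken as pairing. Requiring both same-numbered differences to agree in sign, in the manner of a replicate block, moved narrow H3K27me3 peaks after the knockdown to 2, H3K27me3 coverage lower with GSK-J4 to 1 and the strongest H3K27me3 summit with GSK-J4 to 7 members. Crossing the numbers for H3K4me1 with GSK-J4 gave 0 members higher and 6 lower.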
